A study of Mus musculus with 8 samples.

Results

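Chromatin immunoprecipitation followed by sequencing in Beta-TC6 cells, a cultured mouse insulinoma line that makes insulin and stands in for the beta cell of the pancreas, gave a list of 29735 intervals enriched for H3K27ac. Of these, 716 spanned 5000 bp or more (2.41%) and are called broad domains here. They were chosen by their width alone, end minus start in the deposited list, so their width and their H3K27ac signal are descriptions and support nothing further. The labels name no treatment, and the cells were taken once confluent. As a tumour line they differ from islet beta cells in growth. Each of the 6 targets (H3K27ac, H3K4me2, H2A.Z, PDX1, BMAL1 and CLOCK) had 1 library, with 2 input libraries as controls for peak calling. The narrower 29019 intervals of the same list are the comparison. With 1 library per target there was no replicate spread and no test. Intervals printed with shares and densities are 95% intervals (Wilson for shares, exact Poisson for densities, exact conditional for ratios of densities) and cover counting error only.

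H3K27ac, acetylation of lysine 27 on histone H3, marks active promoters and enhancers. Wide stretches of the mark, often described as stretch enhancers or super-enhancers, are known to gather at genes that define the identity of a cell. PDX1 is the homeodomain transcription factor that switches on insulin and much of the beta-cell programme. BMAL1 and CLOCK bind DNA as a pair at E-boxes and drive the circadian clock. H3K4me2 lies at promoters and enhancers, and H2A.Z is a histone variant found next to transcription starts.

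The sequences that follow are RefSeq promoter windows (GRCm38.p6, 250 bases before a start and 50 from it) that lie inside a broad domain and under a factor peak, and they show where motifs can stand relative to a peak. They were picked because each holds a motif known for its factor, which not every window under a peak does. In all, 411 promoter windows of 304 genes lay wholly within 248 broad domains, and 11 were overlapped by a PDX1 peak, 4 by a BMAL1 peak and 9 by a CLOCK peak. Capitals mark the homeodomain core TAAT (or ATTA on the other strand), the E-box CACGTG and its variant CACGTT (or AACGTG). These letters were chosen with the sequences in view. Of the 11 windows under a PDX1 peak, 9 held the core, and those of Cmip and Rph3al did not. Of the 4 under a BMAL1 peak, 2 held the E-box or its variant, and those of Dbp, where the BMAL1 peak had the highest score of the 4 (143, centred at -389, outside the window), and Dusp5 did not. Of the 9 under a CLOCK peak, 3 held either, and the windows of Myt1, Cxxc4, Dbp, Myt1l, B3galt4 and Ddx39b did not. The Iapp window (chr6:142298175-142298474, plus strand) belongs to the gene of islet amyloid polypeptide, which is co-secreted with insulin, and held 5 homeodomain cores. A PDX1 peak with a score of 94 was centred at -110, counted from the start as 0.
Iapp: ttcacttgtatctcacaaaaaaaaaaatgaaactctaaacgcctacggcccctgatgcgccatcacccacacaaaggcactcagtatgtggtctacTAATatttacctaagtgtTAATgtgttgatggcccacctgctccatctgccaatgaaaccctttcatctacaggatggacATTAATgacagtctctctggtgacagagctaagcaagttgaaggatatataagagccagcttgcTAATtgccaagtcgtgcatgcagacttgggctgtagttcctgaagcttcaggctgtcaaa
The G6pc2 window (chr2:69219699-69219998, plus strand) held 3 homeodomain cores, with a PDX1 peak of score 53 centred at -174. G6pc2 encodes the islet glucose-6-phosphatase subunit.
G6pc2: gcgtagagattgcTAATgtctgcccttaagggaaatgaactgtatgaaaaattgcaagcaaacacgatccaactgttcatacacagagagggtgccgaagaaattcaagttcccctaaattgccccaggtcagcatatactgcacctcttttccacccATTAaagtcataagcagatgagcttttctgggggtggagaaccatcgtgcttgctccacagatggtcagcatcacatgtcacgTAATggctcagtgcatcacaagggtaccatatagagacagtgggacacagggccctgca
The window of Pax6os1, a noncoding transcript opposite Pax6, lies in the widest domain of the list (chr2:105670281-105670580, minus strand). Its PDX1 peak, with a score of 23, was centred at -42, beside a core that begins at -44.
Pax6os1: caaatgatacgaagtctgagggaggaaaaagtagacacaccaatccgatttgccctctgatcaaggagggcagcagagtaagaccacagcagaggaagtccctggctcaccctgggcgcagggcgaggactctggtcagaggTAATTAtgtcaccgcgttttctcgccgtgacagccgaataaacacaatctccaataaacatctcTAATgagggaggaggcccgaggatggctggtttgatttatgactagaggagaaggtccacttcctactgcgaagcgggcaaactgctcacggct
The Cry2 window (chr2:92434020-92434319, minus strand) belongs to a cryptochrome, a repressor in the clock. Its BMAL1 peak (score 48) was centred at -166 and its CLOCK peak (score 70) at -167, and the E-box variant in this window begins at -166.
Cry2: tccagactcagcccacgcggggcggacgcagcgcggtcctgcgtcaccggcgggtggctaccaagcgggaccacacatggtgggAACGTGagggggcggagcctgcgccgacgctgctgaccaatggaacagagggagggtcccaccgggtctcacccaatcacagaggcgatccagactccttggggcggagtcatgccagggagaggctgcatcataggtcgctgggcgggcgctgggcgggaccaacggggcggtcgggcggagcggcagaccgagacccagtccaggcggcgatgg
The window of Cahm, a noncoding gene next to Qk (chr17:10319669-10319968, plus strand), had a CLOCK peak of score 22 centred at -174, and an E-box begins at -158.
Cahm: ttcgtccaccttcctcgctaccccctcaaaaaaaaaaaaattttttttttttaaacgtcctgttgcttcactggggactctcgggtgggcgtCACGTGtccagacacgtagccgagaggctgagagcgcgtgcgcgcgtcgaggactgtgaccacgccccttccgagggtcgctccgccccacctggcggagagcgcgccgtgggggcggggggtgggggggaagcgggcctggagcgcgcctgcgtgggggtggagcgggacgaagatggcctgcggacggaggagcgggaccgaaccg
A match to these letters is a description and not a shown binding site. The E-box occurred in 9.0% of the 411 windows in broad domains (6.60 to 12.2), against 7.15% of all 32851 windows, and its variant in 2.92% (1.68 to 5.03) against 4.68%. The homeodomain core, a short and common string, occurred in 42.8% (38.1 to 47.6) against 58.0%, so these promoters did not hold it more often than others.

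The broad domains ranged from 5001 to 35416 bp, with a median of 6186.5 bp, against 1132 bp in the narrower intervals. There were 313 under 6 kb, 82 of 10 kb or more and 18 of 15 kb or more. They made up 11.4% of the bases and 18.9% of the tags (946177 of 4996053) in H3K27ac intervals. The normalized signal per kb, scaled by the authors' peak caller to 10000000 tags per library, had a median of 121.5 in broad domains and 39.5 in narrower intervals. The median fold over input was 13.55 and 6.65, again with the broad domains higher. At the edge of the rule, the narrowest members overlapped Slc23a2 (5001 bp), Dusp5 (5007 bp) and Gramd1b (5007 bp), and the widest intervals left out overlapped or lay nearest to Fbxl17 (4984 bp), Rsph14 (4982 bp) and Rhpn2 (4981 bp).

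Several of the widest domains lay at genes of the beta-cell programme. The widest, 35416 bp at chr2:105659558-105694974, covered an end of Pax6, which encodes a paired homeodomain factor of islet endocrine cells, and held 5 PDX1 peaks. The next, 31588 bp at chr7:46107898-46139486, lay wholly within Abcc8, the gene of the sulfonylurea receptor subunit of the ATP-sensitive potassium channel, and held 3 PDX1 peaks. A domain of 28298 bp at chr15:85664088-85692386 overlapped no protein-coding gene, and its nearest was Ppara, 42524 bp away. It had 1 PDX1 and 1 CLOCK peak. Ero1b, an oxidase that helps to fold proinsulin, had a domain of 25842 bp with 2 PDX1 peaks, and Wdr25, a WD-repeat gene, one of 20923 bp with 1 PDX1 peak. Pdx1 itself had a domain of 19620 bp (chr5:147261608-147281228) with 2 PDX1 peaks, the better with a score of 71, and the second highest normalized H3K27ac signal of the list, 5857.0. The highest signal, 6411.7, came from a domain of 14589 bp at chr19:5836418-5851007 that overlaps an end of the noncoding RNA gene Neat1 and just reaches Frmd8. Of the 20 widest domains, 11 were also among the 20 with the highest signal.

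**Figure D1:**
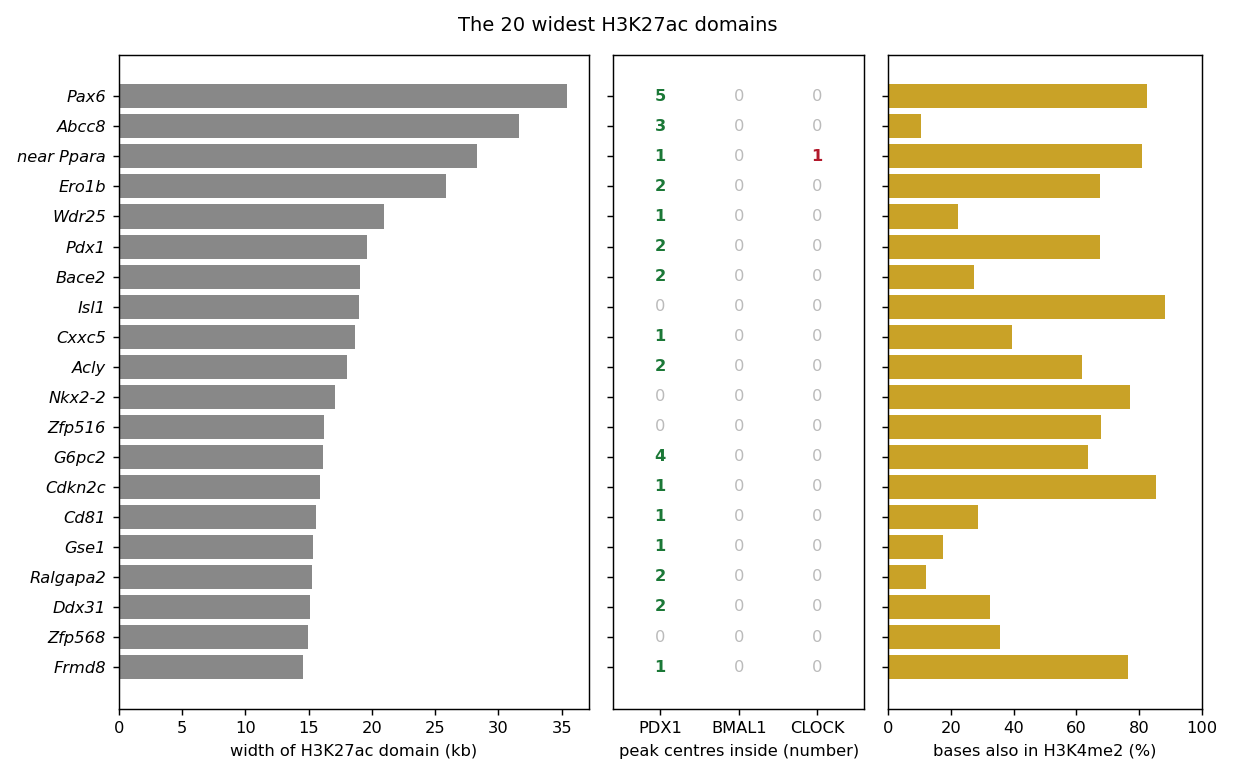
The 20 widest H3K27ac domains, from the widest at the top, with their width in kb, the number of PDX1, BMAL1 and CLOCK peak centres inside, and the share of their bases that also lies in H3K4me2 intervals. Labels name an overlapped or nearest protein-coding gene. PDX1 counts run from 5 at Pax6 to 0 at Isl1, Nkx2-2, Zfp516 and Zfp568, and no BMAL1 peak lies in any of the 20.

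The rest of the 20 widest domains mixed islet genes with others. Bace2, an aspartyl protease, had a domain of 19073 bp with 2 PDX1 peaks. Isl1, a LIM homeodomain factor of islets and neurons, had a domain of 18974 bp with no factor peak, and Nkx2-2, a homeodomain factor required for beta cells, had 17090 bp, likewise with none. G6pc2 had 16135 bp with 4 PDX1 peaks. Acly, which makes cytosolic acetyl-CoA from citrate, had 18002 bp with 2, and Cdkn2c, a cyclin-dependent kinase inhibitor, had 15919 bp with 1. A domain of 15620 bp spanned Tssc4 and reached into Trpm5 (a cation channel) and Cd81 (a tetraspanin), with 1 PDX1 peak. The remaining ones were at Cxxc5 (18698 bp), Zfp516 (16188 bp), Gse1 (15384 bp), Ralgapa2 (15281 bp), Ddx31 (15092 bp) and Zfp568 (14920 bp), with 0 to 2 PDX1 peaks each.

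Genes were given a broad domain when their span overlapped it, or when they were the nearest protein-coding gene within 50 kb of a domain that overlapped none. Of the 716 domains, 574 overlapped a protein-coding gene, 86 had their nearest gene within 50 kb and 56 lay farther away. In all, 611 of 21883 protein-coding genes had a broad domain (2.79%). Longer genes offer more room: the median span was 44.9 kb for genes with a domain and 17.2 kb for all genes. The gene lists below were chosen with earlier results of these data known, so their counts describe these domains and are not independent support.

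Among 35 beta-cell transcription factor genes, 15 had a broad domain (42.9%, 28.0 to 59.1), and the domains of 9 of these held a PDX1 peak (95% interval of that share 35.8% to 80.2%). Over all 611 genes with a broad domain the number was 352 (57.6%, 53.7 to 61.5), so the share in this list was near that of all. The wide ones at Pax6, Pdx1, Isl1 and Nkx2-2 are given above. Neurod1, a bHLH activator of the insulin gene, had 14370 bp with a normalized signal of 2513.0 and 1 PDX1 peak. Nkx6-1, a homeodomain repressor of other islet fates, had 10291 bp with a signal of 2411.0 and no factor peak. Mafa, a bZIP activator of insulin found in mature beta cells, had 5201 bp, close to the width limit, with a signal of 839.2 and no factor peak. Foxa2, a forkhead factor that opens chromatin in endoderm, had 3 domains: 8885 bp over the gene with no factor peak, and 7672 and 6470 bp outside it with 1 and 2 PDX1 peaks. The others were Pax4 (5333 bp), Rfx6 (5358 bp, 34944 bp from the gene), Insm1 (5140 bp), Myt1 (12663 bp), St18 (8316 bp), Etv1 (11567 bp) and Mlxipl (9628 bp).

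Of 25 genes for insulin, its processing and granule content, 14 had a broad domain (56.0%, 37.1 to 73.3), and 12 of these held a PDX1 peak (85.7%, 60.1 to 95.99), against the 57.6% of all genes with a domain. Ins2 had 7459 bp with a signal of 1320.9 and a PDX1 peak of score 24. Ins1 had 5315 bp lying 9266 bp from the gene, with a PDX1 peak of score 67. The 2 insulin genes are close copies, and the sources used here do not say how reads shared by them were placed. The Iapp domain of 9772 bp had a fold over input of 47.78, the highest of all broad domains. Chga, which encodes the granule protein chromogranin A, had 12194 bp and held the PDX1 peak with the highest score in any broad domain, 192. Slc30a8, the zinc transporter of insulin granules, had domains of 11393 and 5317 bp, with PDX1 scores of 51 and 165. Pcsk1 (5011 bp, 24823 bp from the gene) and Pcsk2 (7525 and 6247 bp), the convertases that cut proinsulin, also had domains, as did Cpe, Scg2, Scg3, Scg5, Ptprn2, Ero1b and Npy.

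Of 24 genes for glucose sensing and channels, 10 had a broad domain (41.7%, 24.5 to 61.2). The glucose transporter gene Slc2a2 had 8819 bp at the gene and 7414 bp lying 5440 bp away, each with 1 PDX1 peak. Abcc8 had 3 domains that summed to 52.0 kb and held 6 PDX1 peaks, and its channel partner Kcnj11 had 6020 bp with 2 CLOCK peaks and no PDX1 peak. Together these 4 neighbouring domains spanned 69769 bp. Calcium channel genes Cacna1c, Cacna1a and Cacnb2 and the calcium pump genes Atp2a2 and Atp2a3 had domains of 5025 to 11209 bp. Of 24 receptor and cyclic AMP signalling genes, 6 had a domain (25%): Ffar1, the fatty acid receptor that amplifies secretion, the adrenergic receptor gene Adra2a, Galr1, Pde10a, Irs2 and Ghr. Of 40 vesicle exocytosis genes, 7 had one (17.5%), among them Syt13, a synaptotagmin gene with 3 domains and 4 PDX1 peaks.

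**Figure D2:**
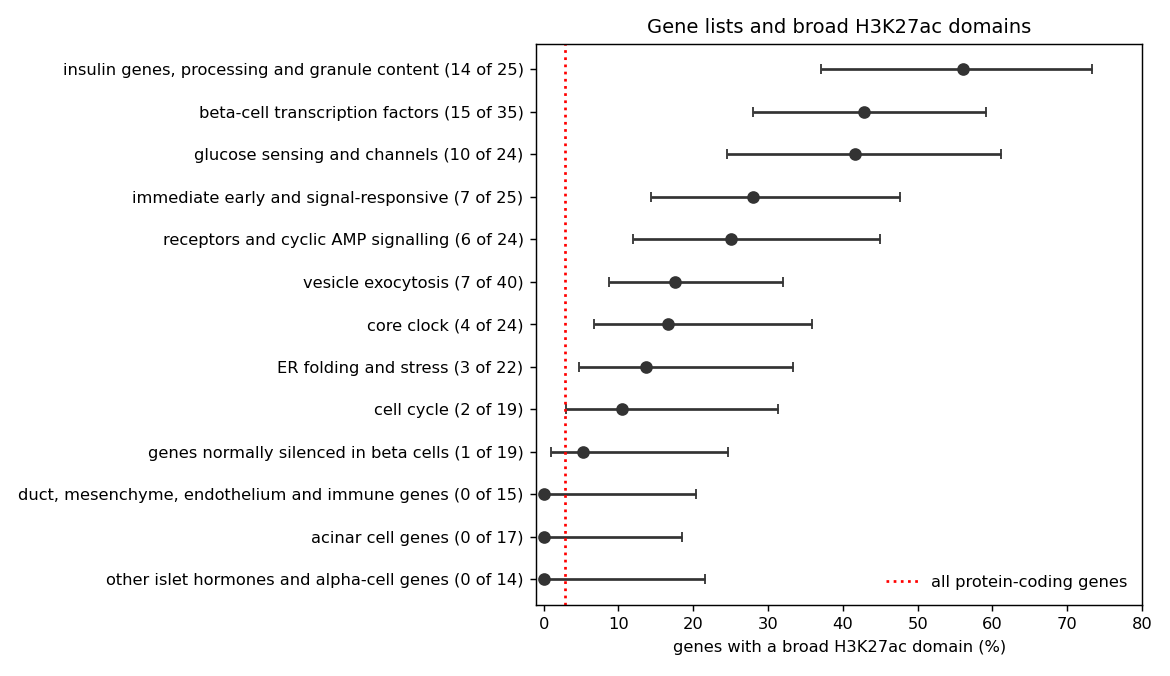
Share of each gene list with a broad H3K27ac domain, in percent, with Wilson 95% intervals and the number of genes in parentheses. The dotted line is the share of all protein-coding genes, 2.79%. Insulin and granule genes (56.0%) and beta-cell transcription factors (42.9%) sit at the top, and 3 lists of other cell types sit at 0.

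Lists that do not describe beta-cell identity were mixed. Of 25 immediate early and signal-responsive genes, 7 had a broad domain (28.0%, 14.3 to 47.6): Fosl2, Junb, Dusp1, Dusp4, Myc, Maff and Btg2. Those of Myc and Btg2 lay outside the gene, 47670 and 6322 bp away. Of 22 genes for protein folding and stress in the endoplasmic reticulum, 3 had one (13.6%, 4.75 to 33.3), namely Hsp90b1, Atf4 and Ern1. Of 19 cell cycle genes, 2 had one, Cdkn1b (12389 bp) and Cdkn2c. Among 19 genes normally silenced in beta cells, Maf alone had a domain, of 9883 bp. None was seen at 14 genes of other islet hormones and alpha cells (upper Wilson bound 21.5%), 17 acinar genes (18.4%) or 15 duct, mesenchyme, endothelium and immune genes (20.4%). Of the 15 beta-cell marker genes, 13 had a broad domain and all 15 an H3K27ac interval of some width, the 2 without a broad domain being Glp1r and Ucn3. Of the 7 alpha-cell markers, 4 had an H3K27ac interval and none a broad domain.

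PDX1 peaks were common in broad domains and sparse for their length. The centre of a PDX1 peak lay in 433 of the 716 broad domains (60.5%, 56.9 to 64.0), in 20.9% of the narrower intervals (20.5 to 21.4) and in 21.9% of all intervals. A wide interval holds more peaks by its length alone, so peaks were also counted per 100 kb. By that measure broad domains held 10.6 PDX1 peaks per 100 kb (9.71 to 11.5) and narrower intervals 15.8 (15.4 to 16.1), a ratio of 0.671 (0.614 to 0.732). From the narrowest class to the widest, under 1 kb, 1 to 2, 2 to 5, 5 to 10 and 10 kb or more, the density was 16.4, 16.9, 14.6, 10.8 and 9.62 per 100 kb, while the share with a peak was 10.2%, 24.3%, 38.1%, 58.0% and 79.3%. The peak caller required 4 times the tag density of the surrounding 10 kb and dropped 3870 of 56464 putative PDX1 peaks on that count, per the file header. The part of that filter in the lower density was not tested.

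**Figure D3:**
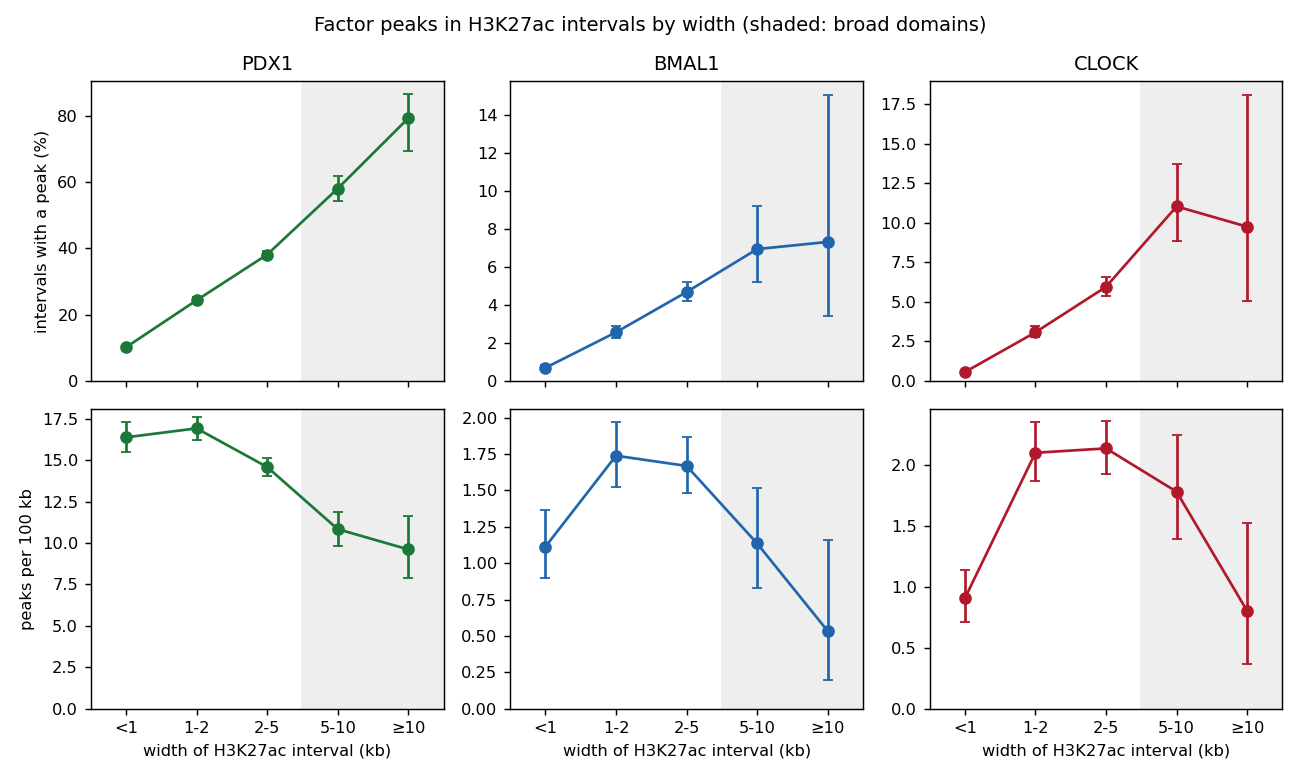
Factor peaks in H3K27ac intervals by width class in kb, for PDX1, BMAL1 and CLOCK. The upper row gives the share of intervals with a peak centre inside (percent, Wilson 95% intervals) and the lower row the peaks per 100 kb (exact Poisson 95% intervals), with the broad domains shaded. The PDX1 share climbs from 10.2% to 79.3% with width while its density goes from 16.4 to 9.62 per 100 kb.

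The density pattern depended on where the domain lay. At protein-coding gene ends (inside or within 1 kb), broad domains held 7.16 PDX1 peaks per 100 kb (6.06 to 8.41) and narrower intervals 4.33 (3.97 to 4.71), a ratio of 1.66 (1.37 to 1.99). Away from gene ends, broad domains held 12.9 per 100 kb (11.6 to 14.2) and narrower intervals 20.7 (20.2 to 21.3), a ratio of 0.621 (0.559 to 0.687). Thus broad domains with a gene end inside or within 1 kb were denser in PDX1 than narrower intervals with one, and broad domains elsewhere were sparser. In a broad domain much of the length can lie away from that end, and the part of this in the ratio was not tested. For the clock factors the ratio was below 1 at gene ends, at 0.526 (0.334 to 0.792) for BMAL1 and 0.617 (0.425 to 0.872) for CLOCK. Away from gene ends their intervals included 1, at 0.686 (0.446 to 1.01) for BMAL1 and 0.993 (0.713 to 1.35) for CLOCK. Right outside the broad domains, leaving out other H3K27ac intervals, there were 1.15 PDX1 peaks per 100 kb (0.895 to 1.44) within 5 kb of an edge and 0.973 from 5 to 10 kb, against 1.74 for the whole list over the genome size in the file header. The flanks within 5 kb held 0.371 BMAL1 peaks per 100 kb (0.235 to 0.557), against 0.206 for its whole list, and 0.145 CLOCK peaks (0.0664 to 0.276), against 0.0689. The whole-list rates include peaks inside H3K27ac intervals, which the flank rates leave out. Outside H3K27ac lay 80.25% of the PDX1 peaks, 83.3% of the BMAL1 peaks and 39.5% of the CLOCK peaks. The flank and whole-list rates are therefore not like for like, and whether the flanks differ from other unacetylated sequence was not tested. The CLOCK flank rate rests on 9 peaks.

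The PDX1 peaks inside broad domains also had a higher median score than those elsewhere. The score given by the authors' peak caller had a median of 32 for the 547 peaks in broad domains, against 26 for those in narrower intervals and 18 outside H3K27ac. A score of 30 or more was reached by 59.96% (55.8 to 64.0), against 41.6% in narrower intervals (40.3 to 42.8) and 16.8% outside. By number most peaks of 30 or more lay elsewhere, with 328 in broad domains, 2636 in narrower intervals and 4692 outside H3K27ac. The highest PDX1 score of the list, 761, lay outside H3K27ac. The part of the filter on the surrounding 10 kb in these scores was not tested. Counted over domains, 283 held no PDX1 peak, 334 held 1, 88 held 2, 8 held 3, 2 held 4 and 1 held 5. Besides Pax6 and G6pc2, 4 peaks lay in a domain of Rbm20 (10320 bp), which encodes a splicing factor. The domains with 3 were at Abcc8, Pkdcc, Ptprn2, Ralgapa2, Tcf4, Tmem108 and Ankrd55 and 72983 bp from Elavl4. The peak centres within a domain were a median of 3065 bp apart over 114 gaps, and 10 gaps were under 1000 bp.

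PDX1 peaks were spread across broad domains rather than centred. Measured from the nearer edge as a share of the width, 6.58% of the peaks in broad domains lay in the outermost 0 to 10%, 19.2% at 10 to 20%, 25.8% at 20 to 30%, 23.4% at 30 to 40% and 25.05% in the middle class of 40 to 50%. In intervals of 2 to 5 kb, the same classes held 4.32%, 7.31%, 15.6%, 28.6% and 44.2% of 2641 peaks. The middle class thus held 25.05% (21.6 to 28.8) in broad domains, against 44.2% (42.3 to 46.1) in the narrower class. CLOCK peaks showed the same contrast, with 23.5% (15.6 to 33.8) of 81 peaks in the middle class of broad domains against 40.2% (35.4 to 45.1) of 386. For BMAL1 the intervals overlapped, at 21.2% (12.2 to 34.0) of 52 peaks against 30.8% (25.9 to 36.2) of 302.

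**Figure D4:**
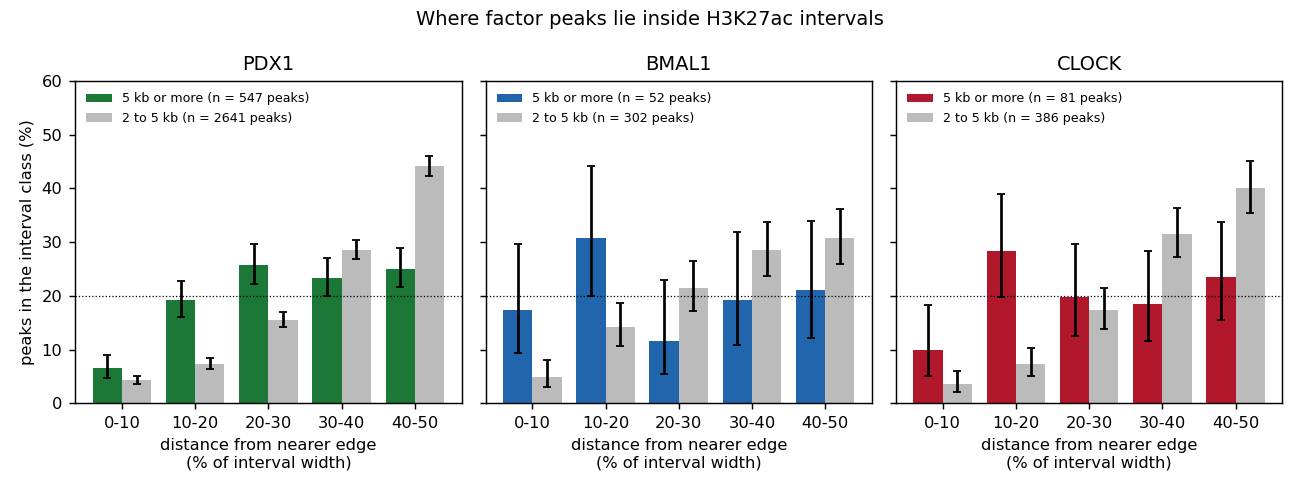
Position of PDX1, BMAL1 and CLOCK peak centres inside broad domains (coloured) and inside intervals of 2 to 5 kb (grey), as the share of peaks in each class of distance from the nearer edge, with Wilson 95% intervals. The dotted line is the even share of 20%. PDX1 peaks in intervals of 2 to 5 kb pile up in the middle (44.2%), while those in broad domains reach 25.05% there.

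BMAL1 and CLOCK were seen in few broad domains. BMAL1 peaks lay in 50 (6.98%, 5.34 to 9.09), against 2.18% of narrower intervals and 2.29% of all intervals. CLOCK peaks lay in 78 (10.9%, 8.82 to 13.4), against 2.57% of narrower intervals and 2.77% of all. Per 100 kb, broad domains held 1.00 BMAL1 peaks (0.751 to 1.32) and narrower intervals 1.58 (1.46 to 1.71), a ratio of 0.636 (0.470 to 0.845). For CLOCK the densities were 1.57 (1.24 to 1.95) and 1.87 (1.74 to 2.01), a ratio of 0.837 (0.657 to 1.05), an interval that includes 1. Against intervals of 2 to 5 kb alone, the CLOCK ratio was 0.734 (0.571 to 0.935), below 1, and that of BMAL1 0.602 (0.440 to 0.811). Neither density went one way with width: from the narrowest class to the widest it was 1.11, 1.74, 1.67, 1.14 and 0.534 per 100 kb for BMAL1 and 0.906, 2.10, 2.13, 1.78 and 0.801 for CLOCK. Either clock factor lay in 107 broad domains, and in 17 of these a BMAL1 peak overlapped a CLOCK peak. The shares with and without PDX1 had overlapping intervals: CLOCK lay in 10.4% (7.86 to 13.6) of the 433 domains with PDX1 and in 11.7% (8.43 to 15.9) of the 283 without. For BMAL1 they were 7.62% (5.48 to 10.5) and 6.01% (3.78 to 9.41). In broad domains, 17 of 52 BMAL1 peaks and 20 of 81 CLOCK peaks scored 13 or 14, at the calling threshold of 13 tags, against 14 of 547 PDX1 peaks. Of each library's tags, 0.48% lay in peaks for BMAL1 and 0.16% for CLOCK, against 4.32% for PDX1. The part of this in the low counts was not tested.

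The highest BMAL1 and CLOCK scores in broad domains were at the clock genes Per2 and Dbp, while those at Cry2 and Nfil3 were lower than at Mcf2l, a gene outside the clock list. At Per2, a period gene, the domain of 6361 bp (chr1:91454053-91460414) held a BMAL1 score of 221 and a CLOCK score of 249, and no PDX1 peak. At Dbp, a PAR bZIP factor driven by the clock, the domain of 6480 bp (chr7:45703896-45710376), which also reaches Car11 and Sphk2, held 2 BMAL1 peaks (best 176) and 2 CLOCK peaks (best 173). Cry2 had 5008 bp with the 2 peaks given beside its sequence. Nfil3, a bZIP repressor that acts on the same sites as Dbp, had 5083 bp with scores of 21 for BMAL1, 32 for CLOCK and 24 for PDX1. These were the 4 of 24 core clock genes with a broad domain (16.7%, 6.68 to 35.9), and each held both clock factors. Of all 611 genes with a broad domain, 45 had BMAL1 in it and 85 had CLOCK. The list was chosen with earlier results of these data known, so this count is a description.

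Other domains with high clock-factor scores lay at genes outside the clock list. Mcf2l, a guanine nucleotide exchange factor, had 6504 bp with BMAL1 at 78 and CLOCK at 91, next to a PDX1 peak of 37. Trim8, an E3 ubiquitin ligase, had BMAL1 at 54 and CLOCK at 69. Ptma, the prothymosin alpha gene, had 41 and 60. Dusp4, a MAP kinase phosphatase, had 50 and 55. A domain 2677 bp from Klf9, a Krüppel-like factor, had 42 and 54. A domain 175773 bp from Mkln1 had 49 and 37, with a PDX1 score of 38, and Kdm6b, an H3K27 demethylase, had 28 and 42. Of the 10 domains with the highest clock-factor scores, 2 held a PDX1 peak, those at Mcf2l and Mkln1. Over all 716 broad domains the number was 433 (60.5%), and among those with a gene end the share was 43.7%. The 10 were picked by score, so their count is a description.

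Peaks of all 3 factors lay in 10 broad domains (1.40%, 0.760 to 2.55), against 0.141% of narrower intervals. These shares are not corrected for length, and the peaks need only lie in the same interval. Of the 21 broad domains with BMAL1 and CLOCK, 10 held PDX1, beside 433 of all 716. The 10 with all 3 factors were at Mcf2l, Myt1l (a zinc finger factor), Mlxipl (the glucose-responsive factor ChREBP), Pnrc2, Arhgap26, Dusp5, Nfil3 and Fbxl22 with Usp3, and nearest to Mkln1 and Myo16. Myt1l had the widest of them, 11929 bp, with scores of 68 for PDX1, 22 for BMAL1 and 26 for CLOCK. Mlxipl had 9628 bp with a PDX1 score of 73 and clock-factor scores of 15, just above the calling threshold of 13 tags. No mapped factor lay in 244 broad domains (34.1%, 30.7 to 37.6), against 76.3% of narrower intervals, again with no correction for length. The widest of these were at Isl1, Nkx2-2, Zfp516, Zfp568 and Stx16, at 14233 to 18974 bp.

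H3K4me2 overlapped nearly all broad domains but left long stretches of them free. An H3K4me2 interval shared at least 1 bp with 674 of the 716 (94.1%, 92.2 to 95.6), with 63.7% of narrower intervals and with 64.5% of all. Of the bases, 50.6% lay in H3K4me2 in broad domains and 50.4% in narrower intervals. At gene ends 66.8% of broad-domain bases were in H3K4me2, and 39.7% away from them. The domain of Isl1 was covered to 88.1%, that of Etv1 to 99.2% and that of Pax6 to 82.5%. The domain of 31588 bp in Abcc8 was covered to 10.55%, in 5 separate H3K4me2 intervals, and a neighbour of 6332 bp within the same gene had none. In 71 domains at least 90% of bases were in H3K4me2, and in 78 under 10%.

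H2A.Z overlapped 37.6% of broad domains (34.1 to 41.2), 24.2% of narrower intervals and 24.5% of all. Its share of the bases was 3.95% in broad domains and 10.5% in narrower intervals. From the narrowest width class to the widest that share was 9.64%, 12.99%, 8.85%, 4.35% and 2.51%. At gene ends it was 5.05% in broad domains and 19.0% in narrower intervals, and away from them 3.21% and 6.74%. The longest stretches of acetylation thus had H2A.Z called over a small part of their length, with 30.0% at Myt1 and 27.03% at Trim8 among the higher values of the domains named here. H2A.Z was called in regions of 500 bp, and the part of that size in the fall with width was not tested.

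By place, 329 broad domains lay wholly inside a gene, 245 held a protein-coding gene end and 142 lay outside genes. A gene end lay in 34.2% (30.8 to 37.8) of broad domains, against 20.3% of narrower intervals and 20.7% of all. Per length the order turned round, with 6.81 gene ends per 100 kb in broad domains and 17.4 in narrower intervals. PDX1 lay in 43.7% (37.6 to 49.9) of domains with a gene end, in 66.6% (61.3 to 71.5) of those within a gene and in 75.4% (67.7 to 81.7) of those outside genes. For CLOCK the shares were 12.7%, 10.6% and 8.45%, with overlapping intervals.

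Domains that held 1 transcription start mostly reached farther downstream of it than upstream. The starts include those of noncoding transcripts. Of the 261 domains with a listed start, 171 held 1 listed start, and 129 of these (75.4%, 68.5 to 81.3) were longer downstream of the start than upstream. The median extent was 4605 bp downstream and 1814 bp upstream. In intervals of 2 to 5 kb with 1 start, 60.8% (58.0 to 63.6) of 1171 were longer downstream. At Isl1 the domain ran 16755 bp downstream and 2219 bp upstream, at Acly 17138 and 864 bp, at Scg2 10285 and 708 bp, and at Nkx6-1 9453 and 838 bp. The domains at Isl1, Scg2 and Nkx6-1 held 2 gene ends each, so part of their downstream stretch lay past the gene. Chga went the other way, with 1774 bp downstream and 10420 bp upstream. Starts on chromosome 18 were not used here, which leaves out its 21 broad domains. Some genes on other chromosomes also lacked a listed start. The domains at Ins2 and Maf, for example, held 2 gene ends each and no listed start. A domain counted with 1 start, or with none, can therefore hold more.

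**Figure D5:**
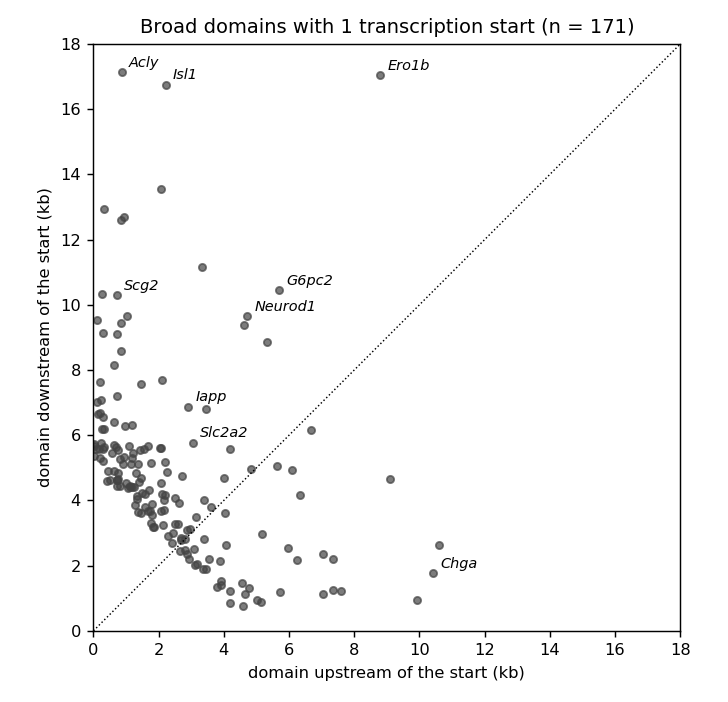
Length of each broad domain downstream (vertical axis, kb) and upstream (horizontal axis, kb) of its transcription start, for the 171 domains with 1 listed start. The dotted line marks equal extent, and 129 points lie above it. Acly and Isl1 reach 17138 and 16755 bp downstream, and Chga lies below the line.

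Some genes held several broad domains, 63 of them 2 or more. By summed width the first were Gse1 (7 domains, 53.2 kb, in a gene of 352.9 kb), Abcc8 (3, 52.0 kb), Bace2 (4, 44.3 kb), Gng12 (4, 36.9 kb) and Ralgapa2 (3, 33.7 kb). Between neighbours, gaps of 12.5 kb or less linked 107 domains into 48 groups. Besides the group at Kcnj11 and Abcc8, they included 27753 bp at Foxa2 with 3 domains, 38398 bp at Syt13 with 3, 37124 bp at Spc25 and G6pc2 with 2, and 26767 bp at Slc30a8 with 2.

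Of 1005 miRNA hairpins in the RefSeq table, 11 lay in broad domains (1.09%), in 10 domains, and 101 in any H3K27ac interval. Mir375, whose miRNA is abundant in islets and restrains insulin secretion, lay in a domain of 10844 bp next to Cryba2 (chr1:74892212-74903056) with a signal of 3487.7, 1 PDX1 and 1 CLOCK peak. Mir7-2, a source of miR-7a, which is also abundant in islets, lay in 12936 bp with 2 PDX1 peaks and a signal of 1327.6. Mir15b and Mir16-2 lay together in 9819 bp with no factor peak. For Mir375 the 5p arm is printed, and the arm known to be abundant in islets is miR-375-3p. Mature sequences are shown with the seed, bases 2 to 8, in capitals, and show that miR-15b and miR-16 share theirs while those of miR-375-5p and miR-7a differ.
mmu-miR-375-5p: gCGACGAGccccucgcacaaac
mmu-miR-7a-5p: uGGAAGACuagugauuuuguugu
mmu-miR-15b-5p: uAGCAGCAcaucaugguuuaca
mmu-miR-16-5p: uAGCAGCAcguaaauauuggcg

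Depth ranged from 12892080 tags (BMAL1) to 26678241 (H3K4me2), with 13430083 for H3K27ac, 17898856 for CLOCK, 19568242 for PDX1 and 18513695 for H2A.Z. Where a domain is said to hold no peak, none reached the calling threshold at this depth. Broad domains held 12.1 input tags per kb and narrower intervals 11.0 when all bases were pooled, and the median per interval was 12.0 in broad domains and 8.30 in narrower intervals. By chromosome, leaving out Y with its 2 intervals and no broad domain, their number per Mb of H3K27ac-covered sequence ran from 7.51 on chromosome 16 to 21.7 on chromosome 15, and input from 7.14 to 13.8 tags per kb. Across 20 chromosomes of these same libraries, number and input had a Spearman correlation of 0.337, and the part of input in the number was not tested.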

How the data were processed

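Each of 6 targets had 1 library in Beta-TC6 cells. The submitters' processing notes name Bowtie 1.1.1, HOMER and the build mm10. The HOMER version is not given in these sources. Peaks were called per library against an input, one shared by H3K27ac, H3K4me2 and PDX1 and another by BMAL1, CLOCK and H2A.Z, in factor style for PDX1, BMAL1 and CLOCK and in histone style, with regions of 500 bp and a minimum distance of 1000 bp, for H3K27ac, H3K4me2 and H2A.Z, per the file headers. The title of the second input also names H2A.Z, as the header does. The description of the H2A.Z library gives the first of these inputs instead, so which one served as its control is not fully certain. How the caller joins enriched stretches therefore sets the widths. Factor peaks needed 4 times the input and 4 times the surrounding 10 kb, per the file headers. Deposited tag counts and deposited normalized tag counts, a signal scaled to 10000000 tags, the authors' score and the deposited fold over input were used as given. The deposited p-values and the deposited focus ratio, a fraction, entered no result.

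A factor peak was inside an interval when its centre was. Mark overlap needed 1 bp. Gene spans came from an NCBI RefSeq table for GRCm38.p6, which shares coordinates with mm10, and starts, promoters and miRNAs from RefSeq tables of the same assembly. Exons, introns and untranslated parts were not determined. The members, the 13 gene lists and the comparisons were chosen with earlier results of these data known. Named genes were the 20 widest domains, those with the most PDX1 peaks, those with all 3 factors or the highest clock-factor scores, the widest without a factor peak, genes with several domains, and list members. Alternatives changed the width limit, the fold over input, the gaps joined, the peaks used, the overlap, the genes and the chromosomes. The functions were tested on simulated data. Computation used SciPy 1.17.1, pandas 2.3.3 and NumPy 2.4.6 under Python 3.11.15, and figures matplotlib 3.10.9.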

Additional observations from a re-analysis of the deposited data

How the results depend on the processing

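Of 68 alternative values, 39 stayed within the 95% interval of the reported share or ratio, or for counts within 1.5 times, 28 moved and 1 turned round. For shares of bases that interval treats each base as a draw and is narrow, so small shifts count as moved. The one that turned was chosen after seeing the data: in intervals with a gene end inside or within 1 kb, the PDX1 ratio was 1.66, against 0.671 in all, with PDX1 in 43.7% of broad domains and a CLOCK ratio of 0.617. No other alternative run changed the direction of a density ratio. The number of broad domains was 1337 at 4 kb, 82 at 10 kb, 1614 with gaps of 2.5 kb or less joined and 5127 with gaps of 12.5 kb or less joined, against 716. At a limit of 4 kb, 56.6% held PDX1, the PDX1 ratio was 0.733, H3K4me2 and H2A.Z covered 49.9% and 4.61% of bases, and 30.7% held a gene end. At 10 kb, 79.3% held PDX1, the BMAL1 and CLOCK ratios were 0.347 and 0.430, H3K4me2 and H2A.Z covered 54.7% and 2.51%, 54.9% held a gene end, and 8 beta-cell transcription factor genes had a domain, against 15. With the upper 50% of peaks by score, 55.0%, 5.17% and 7.54% held PDX1, BMAL1 and CLOCK, and the PDX1 ratio was 0.830. With the upper 50% of each mark list, H3K4me2 covered 36.5% and H2A.Z 2.54%. At 8 times the input or more, they covered 51.0% and 3.85%. Away from gene ends, 70.5% held PDX1. With all gene types, 44.1% held a gene end. Leaving out chromosome 15, run for the factor shares and density ratios alone, moved none of them beyond its interval. No paired analysis was possible because each target had 1 library.

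With 1 library per target, no value has a replicate error, and widths rest on 13430083 H3K27ac tags and on the caller's joining of regions.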

Other observations

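Several genes of the lists fell just short of the width limit. The widest H3K27ac interval in the span of Pcx, pyruvate carboxylase, was 4938 bp, and that of Pde3b 4894 bp. The stress gene Ddit3 followed with 4875 bp and the core clock gene Bhlhe41 with 4858 bp. Gcgr, the glucagon receptor, had 4779 bp, the repressor Bach2 4759 bp and the granule protein gene Sytl4 4716 bp. Glp1r, the receptor of the incretin GLP-1, had 5 intervals, the widest of 4556 bp, and Sox4 and Mnx1 had 4470 and 4186 bp. Genes of lists outside beta-cell identity came as close, among them Dusp6 (4530 bp) and Per1 (4401 bp). Krt7, of the duct, mesenchyme, endothelium and immune list, had 4280 bp. Ucn3, a marker of mature beta cells, had 1 interval of 924 bp.

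The cyclic AMP response element TGACGTCA, the site of CREB family factors, occurred in 18 of the 411 promoter windows inside broad domains (4.38%, 2.79 to 6.82), against 1.79% of all 32851 windows. It was searched with the sequences in view, several windows can belong to 1 gene, and no CREB library was analysed here.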
